A study of Mus musculus with 2 samples.

Results

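The 40 genes described here encode lysosomal hydrolases, cathepsins and closely linked lysosomal proteins, and were taken by gene symbol from a fixed list. All 40 were found among 43346 mouse gene identifiers. They comprise 13 cathepsins, 10 proteins of glycolipid breakdown, 7 enzymes of glycosaminoglycan breakdown, 4 enzymes of glycogen and glycoprotein breakdown, 3 enzymes that act on lipid esters, acylated proteins or peptides, and 3 lysosomal membrane proteins. The list did not use measured values, although it was drawn up with earlier results of these data known.

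The RNA came from adipose tissue of a male adult C57BL/6J mouse, 10 weeks old, with no treatment or genotype contrast. Polyadenylated RNA of 1 biosample was sequenced as 2 technical libraries, the second made in May 2015, after the publication that used the first. Each comparison below is therefore between 2 libraries of 1 biosample, not between conditions, and the effect of the library cannot be told apart from that of its date. The SDs given are technical, with n = 2 libraries, and no value carries a biological error.

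Lysosomes are acidic organelles that degrade material delivered by endocytosis, phagocytosis and autophagy. Most of their hydrolases are made as inactive precursors, tagged with mannose 6-phosphate and carried to the organelle by receptors, and the transcription factor TFEB and its relatives bind CLEAR elements, built around the letters CACGTG, near many of their genes. In adipose tissue lysosomes are known from adipocytes, in which acid lipase hydrolyses esters delivered by lipophagy, and from macrophages, which are rich in cathepsins and take up lipid of dying fat cells.

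The libraries held 19954869 and 19256809 expected counts. Mitochondrial transcripts and their nuclear copies took 51.7% of all TPM (transcripts scaled to length and to the same total in every library) in library 1 and 15.9% in library 2. All 10 adipocyte markers reached at least 1 TPM in each library, and their levels summed to 7651 and 12260 TPM. All 12 macrophage markers were too, at sums of 323.5 and 995 TPM, with none at 0. The 10 markers of the epididymis, which the tissue label does not name, reached sums of 41390 and 50850 TPM. Of 10 markers of T and NK cells, 3 reached 1 TPM in both libraries, and of 5 osteoclast markers 2 did. The T and NK cell markers summed to 124.4 and 132.3 TPM, of which Klrb1c alone held 118.8 and 113.9 TPM. The levels below are those of this mixture; in bulk RNA fewer cells of a type and less RNA per cell cannot be told apart, and the part of each cell type in the members' levels was not tested.

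The sequences that bear most directly on the group are the CACGTG letters in the promoters, since the core of the CLEAR element is what lysosomal genes are known to share. RefSeq promoter windows on GRCm38.p6, which run from 250 bases before to 50 bases after a start, existed for 34 of the 40 members. The letters CACGTG, which read the same on both strands, occurred in the windows of 11 of these 34 genes (32.4%) and of 8.09% of all 27025 genes with a window. The longer letters TCACGTGA, which contain them, occurred in 3 members (8.82%, against 1.12% of all genes), and the palindrome with GT before and AC after CACGTG, searched for as a fuller CLEAR element, in 0 of 34, against 0.37% of all genes. The letters GTCACGTG, searched on both strands after the other matches had been seen, occurred in 8 members (23.5%) and in 2.55% of all genes. These matches overlap each other and are descriptions of letters, not of bound sites. Lamp1 stood out among the 11 with 4 copies within 62 bases, the first beginning 61 bases before the start. It lies on the plus strand at chr8:13159095-13159156 and is shown with the CACGTG letters in capitals.
Lamp1: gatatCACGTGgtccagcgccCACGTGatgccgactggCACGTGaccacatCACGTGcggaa

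Stretches of 26 bases around a match before the RefSeq start follow for 6 further members. They were chosen after their values were seen because their levels or ratios are described below. By the GENCODE M21 gene spans, which can begin elsewhere, the matches shown for Ctsd, Ctsl and Naglu lie inside the gene. Each stretch is written in the direction of its gene, with CACGTG in capitals. The stretches lie at chr7:142387910-142387935 (Ctsd, minus strand), chr11:119267813-119267838 (Gaa, plus strand), chr11:101070011-101070036 (Naglu, plus strand), chr15:89477425-89477450 (Arsa, minus strand), chr9:114401020-114401045 (Glb1, plus strand) and chr13:64370741-64370766 (Ctsl, minus strand).
Ctsd: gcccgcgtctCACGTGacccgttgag
Gaa: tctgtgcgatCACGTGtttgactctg
Naglu: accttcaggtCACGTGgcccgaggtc
Arsa: aactcagtgtCACGTGttgtctgctc
Glb1: gcttctgagtCACGTGgcctacagag
Ctsl: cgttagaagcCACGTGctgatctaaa

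The other members with the letters were Ctsa, Ctsf, Gla and Sgsh. In the stretches shown, Ctsd, Naglu, Arsa and Glb1 carry GTCACGTG on one strand or the other, and Gaa and Ctsl do not. The 11 members with CACGTG had medians of 10.2 and 63.2 TPM in libraries 1 and 2. For the 23 with a window and no match the medians were 28.0 and 53.2 TPM. The set with the letters was thus the lower one in library 1 and the higher one in library 2, so no order of the sets held in both. No test was made of that difference.

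Transcripts of the lysosomal genes were abundant in this tissue. Of the 40 members, 38 reached 1 TPM in both libraries, a level that 57.1% of all protein-coding genes reached. The exceptions were Ctsw and Ctse. The members had median levels of 24.5 and 53.7 TPM in libraries 1 and 2, against 2.09 and 6.01 TPM for all protein-coding genes. Together they drew 0.436% and 0.784% of all counts. The 5 highest members held 51.6% of the members' summed TPM in library 1 and 57.5% in library 2.

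**Figure D1:**
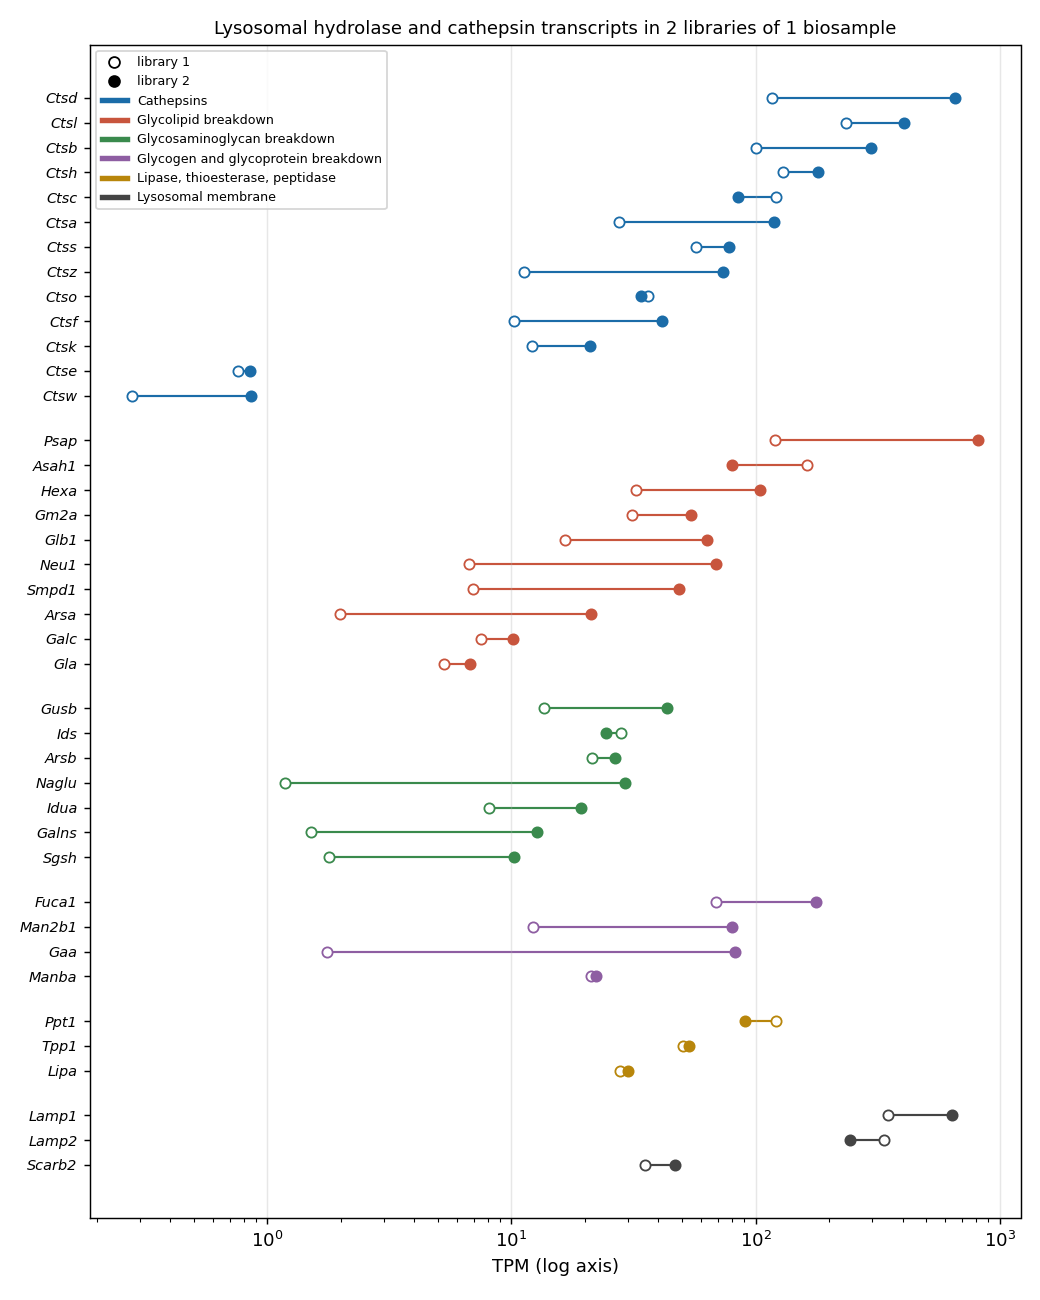
TPM (log axis) of the 40 members in library 1 (open circles) and library 2 (filled circles), grouped by role and coloured by group, with a line joining the values of a gene. Ctsw and Ctse lie below 1 TPM in both libraries, and the widest gaps belong to Gaa and Naglu.

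The order of the levels was partly shared by the libraries, with a Spearman rho of 0.774 across the 40 genes, given as a description. In library 1 the highest were Lamp1, Lamp2 and Ctsl, and Psap and Ctsd ranked 8 and 9. In library 2 Psap ranked 1 and Ctsd 2, ahead of Lamp1 and Ctsl. Of the 10 highest members, 7 were common to both libraries: Lamp1, Lamp2, Ctsl, Ctsh, Psap, Ctsd and Ctsb. By mean level the order began Lamp1 (493 ± 204 TPM), Psap (469 ± 493), Ctsd (387 ± 382), Ctsl (319.9 ± 120.1) and Lamp2 (289.6 ± 64.8), with SDs that overlap between all neighbours, so no place in that order is resolved.

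A higher TPM in library 2 was seen for 34 of the 40 members. The same held for 12906 of all 21474 protein-coding genes, undetected genes included. Since TPM has a fixed sum, the smaller mitochondrial share of library 2 enters both counts. With mitochondrial genes and copies left out of the total, 22 members were higher in library 2 and 18 in library 1. The medians of libraries 2 and 1 were then 63.8 and 50.6 TPM. All genes were not counted in this way. Ratios between the libraries were therefore taken from counts scaled by the trimmed mean of M values (TMM), a scaling under which most genes are taken to be unchanged. A gene was called at an adjusted p below 0.05 in an exact binomial test and a ratio of at least 2-fold, and intervals are 95% intervals that cover counting error only.

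By that rule 16 of the 40 members were higher in library 2 and 4 were lower, and 20 were not called. Of all 18261 genes tested, 30.1% were called higher and 18.4% lower. The median log2 ratio of the members was 0.30, against 0.02 for all tested genes. The 16 were Ctsd, Ctsz, Ctsa, Ctsf, Psap, Neu1, Smpd1, Arsa, Glb1, Naglu, Galns, Sgsh, Gusb, Gaa, Man2b1 and Fuca1, and the 4 were Lamp2, Ppt1, Asah1 and Ctsc. The scaling matters for these counts. Scaled to total counts, 18 members were higher (37.2% of all genes) and 0 lower (6.44%), and at a limit of 1.5-fold under TMM, 18 were higher (35.6%) and 8 lower (29.6%).

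Among the cathepsins, the proteases that cut proteins inside the lysosome, the aspartic protease Ctsd, the cysteine proteases Ctsl and Ctsb and the aminopeptidase Ctsh were the most abundant by mean TPM and in library 2. Ctsd had 117 TPM (library 1) and 657 TPM (library 2), and its counts of 3071 and 17008 gave a log2 ratio of 2.08 (interval 2.03 to 2.14). Ctsl, a broad endopeptidase, was at 235 and 405 TPM with a log2 ratio of 0.05 (0.00 to 0.09). Ctsb, which acts both as an endopeptidase and as a dipeptidase, was at 100.2 and 296 TPM, with a log2 ratio of 0.82 (0.79 to 0.86). Of these 3, Ctsd alone was called.

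Ctsh was at 129 and 179.7 TPM, and its log2 ratio of 0.01 was the nearest to 0 of all members. Ctsc, the dipeptidyl peptidase that activates granule serine proteases, had 121 TPM and 84.4 TPM. Its log2 ratio of -1.09 (-1.16 to -1.02) made it the only cathepsin called lower. Ctss, the cysteine protease of antigen-presenting cells that trims the invariant chain, was at 57.2 and 77.8 TPM and was not called.

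Ctsa, a carboxypeptidase that also shields Neu1 and Glb1 from degradation, was at 27.5 and 119 TPM and was called higher with a log2 ratio of 1.98 (1.83 to 2.13). Ctsz, a carboxypeptidase, had the same log2 ratio of 1.98 and levels of 11.2 and 73.8 TPM. Ctsf, another cysteine protease, was at 10.2 and 41.3 TPM, with a log2 ratio of 1.28. The cysteine protease Ctso, at 36.4 and 33.96 TPM, was lower by count without reaching 2-fold (log2 ratio -0.87).

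The 3 cathepsins best known from specialised cells were the lowest of the 13 by mean TPM. Ctsk, the collagen-degrading protease of osteoclasts, was at 12.1 and 21.1 TPM, with a log2 ratio of 0.06 whose interval ran from -0.17 to 0.30. The osteoclast genes Ocstamp (0 and 2 counts), Calcr (8 and 5 counts) and Dcstamp (13 and 22 counts) had few counts. Of the other osteoclast genes listed, Nfatc1, a transcription factor of activated lymphocytes too, was at 2.20 and 6.43 TPM. Acp5, which macrophages also express, was at 15.7 and 174.5 TPM. The cell type behind the Ctsk level was not tested. Ctsw, a protease of cytotoxic lymphocytes, had 5 and 12 counts, and Ctse, an aspartic protease of gastric and immune cells, had 22 in each library, too few to resolve a ratio.

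The natural inhibitors of the cysteine cathepsins were represented by 2 abundant genes. Cst3, the secreted inhibitor cystatin C, was at 106 and 974 TPM and was called higher (log2 ratio 2.47). Cstb, the cytosolic inhibitor cystatin B, was at 68.2 and 195 TPM, with a log2 ratio of 0.78. Stfa1 had no counts in either library, which allows up to 3 counts in each. Of the 5 inhibitors on the list, 4 could be tested, and 2 were called higher (Cst3, Cst6) and 1 lower (Csta1, with 10 and 2 counts). Of all tested genes 30.1% were called higher and 18.4% lower.

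Among the proteins of glycolipid breakdown, Psap was the most abundant by mean TPM and in library 2, and Asah1 in library 1. It encodes prosaposin, the precursor of the saposins, small proteins that lift glycolipids out of membranes for the hydrolases. Its levels were 120.4 and 817 TPM, the second being the highest of any member, and its counts of 4905 and 26871 gave a log2 ratio of 2.07 (2.02 to 2.11). Gm2a, the activator that presents ganglioside GM2 to hexosaminidase, was at 31.1 and 54.2 TPM with a log2 ratio of 0.06 and was not called.

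Asah1, acid ceramidase, went the other way from Psap, with levels of 162.8 and 80.1 TPM and a log2 ratio of -1.17 (-1.24 to -1.10). Hexa, the alpha subunit of beta-hexosaminidase, was at 32.3 and 104 TPM. Its log2 ratio of 0.95 (0.84 to 1.06) lay just under the 2-fold limit.

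Neu1, the sialidase, was at 6.71 and 68.7 TPM and had a log2 ratio of 2.17 (2.02 to 2.33). Glb1, lysosomal beta-galactosidase, which forms a complex with Neu1 and Ctsa, was at 16.6 and 63.2 TPM with a log2 ratio of 1.19 (1.06 to 1.32). Ctsa, Neu1 and Glb1 were all called higher, as were 30.1% of all tested genes, and with the GC trend removed, as described further on, none of them was called (-0.21, 0.52 and 0.43). Glb1 was also the only member with fractional counts, and the gene Tmppe overlaps it on the same strand.

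Arsa, which desulfates sulfatide, was at 1.98 and 21.1 TPM and had the third largest ratio of the members with 100 counts or more on average, at 2.53 (2.23 to 2.86). Smpd1, acid sphingomyelinase, was at 6.94 and 48.7 TPM with a log2 ratio of 2.07. Gla, which removes terminal alpha-galactose from globotriaosylceramide, and Galc, which hydrolyses galactosylceramide, were the lowest of the group by mean TPM, at 5.27 and 6.78 TPM and at 7.53 and 10.1 TPM. Neither was called, with log2 ratios of -0.38 and -0.32.

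The enzymes that take apart glycosaminoglycans, the sulfated sugar chains of the matrix, were lower in level, with medians of 8.12 and 24.4 TPM. Gusb, beta-glucuronidase, was at 13.6 and 43.3 TPM and passed the 2-fold limit narrowly, with a log2 ratio of 1.01 (0.86 to 1.16). Ids, iduronate 2-sulfatase, was at 28.0 and 24.4 TPM, with a log2 ratio of -0.93 (-1.02 to -0.83), and Arsb, which desulfates dermatan sulfate, at 21.4 and 26.6 TPM with -0.43. Neither sulfatase was called.

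Naglu, an enzyme of heparan sulfate breakdown, was barely detected in library 1 at 1.18 TPM (48 counts) and was at 29.2 TPM (915 counts) in library 2. Its log2 ratio of 3.85 (3.45 to 4.32) was the second largest of the 40. Galns, which acts on keratan sulfate, was at 1.51 and 12.7 TPM with 2.32 (1.95 to 2.74), and Sgsh, the heparan sulfamidase, at 1.78 and 10.3 TPM with 1.84 (1.56 to 2.14). Idua, alpha-iduronidase, was at 8.12 and 19.2 TPM and was not called, at 0.45. Of the 7 enzymes 4 were called higher and 0 lower, against 30.1% and 18.4% of all tested genes.

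Gaa had the largest ratio of all members. It encodes acid alpha-glucosidase, which degrades glycogen in the lysosome, and lies at chr11:119267887-119285454 on the plus strand of GRCm38. Its level was 1.75 TPM in library 1, from 55 counts, and 82.2 TPM in library 2, from 3479 counts. The log2 ratio was 5.58 (5.21 to 6.01), or 47.9-fold.

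The enzymes that trim glycoprotein sugars included 2 more called genes. Fuca1, alpha-fucosidase, was at 69.15 and 177 TPM with a log2 ratio of 1.61 (1.49 to 1.73). Man2b1, lysosomal alpha-mannosidase, was at 12.2 and 79.7 TPM with 1.97 (1.86 to 2.07). Manba, beta-mannosidase, was at 21.1 and 22.2 TPM, with a log2 ratio of 0.15 (0.01 to 0.30).

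Lipa, Ppt1 and Tpp1 had ratios below 0. Lipa, the acid lipase that hydrolyses cholesteryl esters and triglycerides, was at 27.9 and 30.1 TPM with a log2 ratio of -0.63 (-0.75 to -0.51). Ppt1, which removes palmitate from proteins, was at 121 and 90.6 TPM and was called lower at -1.18 (-1.25 to -1.11). Tpp1, a tripeptidyl peptidase, was at 50.3 and 53.2 TPM with -0.66 (-0.74 to -0.58). The TPM of Lipa and Tpp1 were thus nearly equal while their scaled counts were lower in library 2.

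The membrane proteins held some of the highest levels. Lamp1, a heavily glycosylated protein of the lysosomal membrane, was at 349 and 637 TPM, and its counts of 12331 and 17657 gave a log2 ratio of 0.13 (0.10 to 0.16). Lamp2, its relative, was at 335 and 244 TPM, and its log2 ratio of -1.24 (-1.28 to -1.21) was the smallest of the 40. Scarb2, the receptor that carries glucocerebrosidase to lysosomes, was at 35.3 and 46.8 TPM with -0.33. Of the 3, only Lamp2 was called.

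The ratios of the members followed the GC content of their transcripts. Across the 40 members the Spearman rho of log2 ratio and GC content was 0.895, and across 18133 tested genes it was 0.859; both describe genes of the same 2 libraries. Below 45% GC, 0 of 7 members were called higher and 3 lower, where 59.9% of all tested genes were lower. Between 45% and 50%, 0 of 8 were higher and 1 lower, against 13.4% of all tested genes lower. Between 50% and 55%, 7 of 15 were higher, against 38.9%. At 55% or more 9 of 10 were higher, where 86.3% of all tested genes were, and the exception was Hexa.

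**Figure D2:**
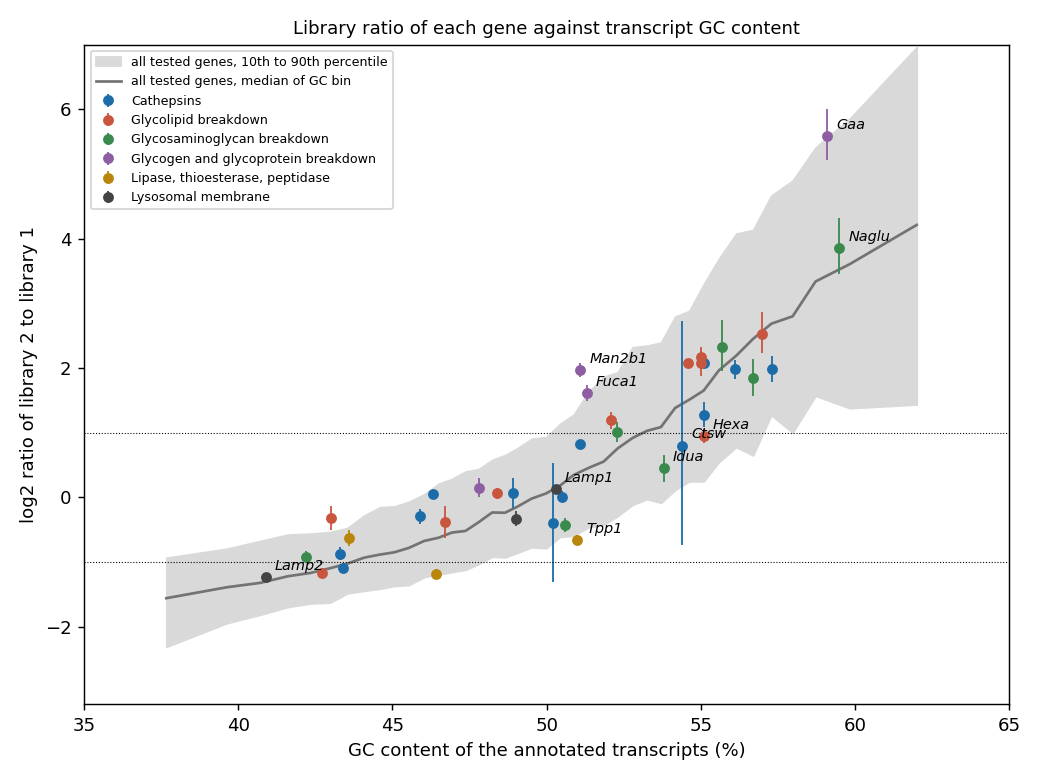
Log2 ratio of library 2 to library 1 against the GC content of the annotated transcripts (%), for the 40 members (points coloured by role, bars 95% counting intervals), with the median (line) and the 10th to 90th percentile (grey) of all tested genes in 40 GC bins. Dotted lines mark 2-fold; ratios of the members are higher at higher GC content, from Lamp2 at -1.24 to Gaa at 5.58.

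GC content also differed between the sets with and without the promoter letters. The 11 members with CACGTG in the promoter window had a median GC content of 55.1%, and 8 were called higher and 0 lower. The 23 with a window and no match had 49.0%, with 7 higher and 3 lower. Of all tested genes 30.1% were called higher and 18.4% lower, and of those at 55% GC or more 86.3% were higher. The median log2 ratios of the members with and without the letters were 1.84 and 0.06 as measured. They were 0.25 and 0.24 once the median ratio of genes of like GC content was subtracted. Levels were graded with GC content in library 1, where the median TPM of the members was 36.4, 33.2, 16.6 and 6.09 from the lowest to the highest GC class. In library 2 the medians were 33.96, 50.5, 63.2 and 57.6 TPM, lowest in the class of least GC.

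When the median ratio of tested genes of like GC content was subtracted, 36 of the 40 members lay within 2-fold of it. Then 3 members, Gaa, Man2b1 and Fuca1, were called higher and 1, Tpp1, lower, with 9.55% and 8.18% of 18133 genes called. Gaa kept a log2 ratio of 2.25, Man2b1 of 1.62 and Fuca1 of 1.15, while Tpp1 stood at the limit with 0.499-fold. These are ratios of counts, which are not scaled to length. The effective length in libraries 1 and 2 was 632 and 1259 bases for Fuca1 and 1838 and 3161 bases for Gaa. With mitochondrial genes and copies left out, Fuca1 was at 143.2 and 210.5 TPM and Gaa at 3.62 and 97.7 TPM. The 3 genes called higher are all enzymes of the glycogen and glycoprotein group. The median of the members was then 0.22.

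GC content was there pooled over all annotated transcripts of a gene, which for some members differs from that of the transcript that was read. When transcripts were weighted by their TPM instead, a choice made after seeing the data, 2 members stayed higher, Gaa at 2.14 and Fuca1 at 1.02, and 1 was lower, Ctsf at -1.03. Of all genes 8.17% and 7.6% were called. Man2b1 moved to 0.64 and Tpp1 to -0.12. Their GC content was then 54.1% against 51.1% pooled (Man2b1) and 46.8% against 51.0% (Tpp1). Both have only 1 transcript in the deposited values, so the weights themselves changed nothing for them. The GC content was that of the GENCODE M21 sequence, whose length can differ from that of the deposited transcript. For Man2b1 the M21 sequence has 3822 bases and the deposited transcript 4325, for Tpp1 3558 and 3494, and for Scarb2 4698 and 2110. The pooled content also takes in GENCODE M21 transcripts that the deposited values lack. In 35 of the 40 members the ratio stayed within 2-fold under both ways, and the exceptions to this were Gaa, Man2b1, Fuca1, Tpp1 and Ctsf.

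**Figure D3:**
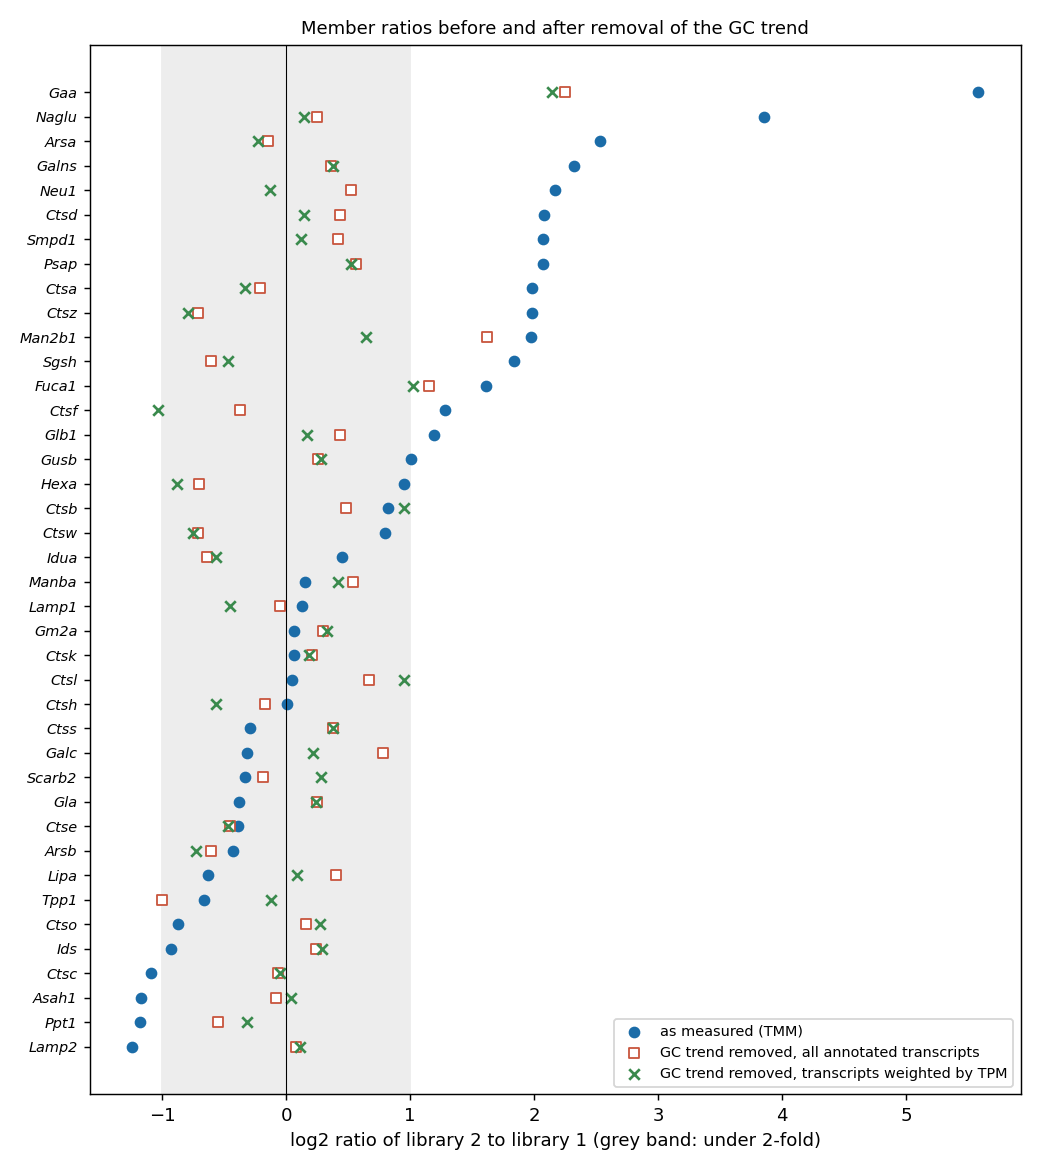
Log2 ratio of library 2 to library 1 of each member as measured (filled circles), after removal of the GC trend with GC content pooled over all annotated transcripts (open squares), and with transcripts weighted by TPM (crosses). The grey band holds ratios under 2-fold; only Gaa and Fuca1 stay right of it under both corrections.

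The libraries also differed in which transcript of a gene was read. Of the 40 members, 17 have 1 transcript in the deposited values and 23 have several. Among the 23, the transcript with the largest share of the gene's TPM differed between libraries in 13. Among genes with several transcripts and 100 counts or more on average, the leading transcript differed in 12 of 22 members (54.5%) and in 2984 of 8862 genes overall (33.7%). In all 13 members the leading transcript of library 2 was protein coding, and in 7 the leading transcript of library 1 was. The leading transcript was longer in library 2 in 11, though in Lipa only by 2969 against 2965 bases. Its GC content was higher in library 2 in 10. Coding type, length and GC content of leading transcripts were not counted over all genes. Whether these traits are particular to the members was therefore not tested. The shares are the quantifier's estimates from short reads, and since they set a gene's effective length, TPM and count ratios of these members can differ.

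**Figure D4:**
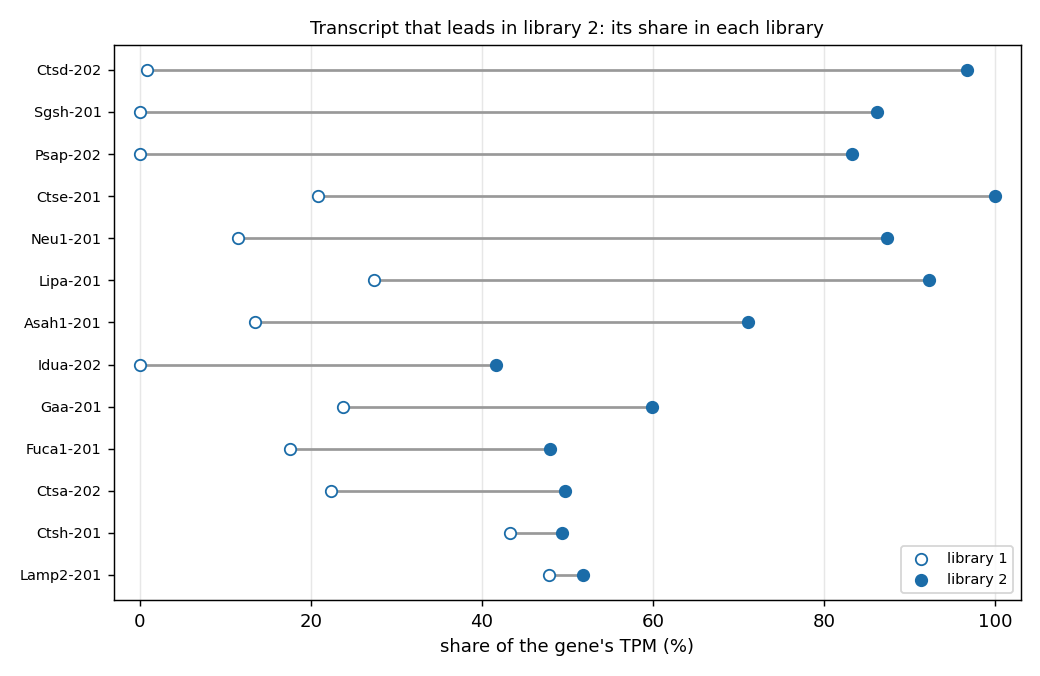
Share of the gene's TPM (%) taken in library 1 (open circles) and library 2 (filled circles) by the transcript that leads in library 2, for the 13 members whose leading transcript differs. Ctsd-202, Sgsh-201 and Psap-202 lie under 1% in library 1 and over 80% in library 2, and the gap is smallest for Lamp2-201.

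Of the members with a second transcript at 10% or more in both libraries, the highest second shares on average belonged to Neu1, Lamp2, Arsa, Asah1, Fuca1 and Ctsh. Neu1-202, a retained-intron transcript, took 88.6% of Neu1 in library 1 and 12.6% in library 2, the rest being the coding Neu1-201. Asah1 was led by the retained-intron transcript Asah1-203 in library 1 (48.2%) and by the coding Asah1-201 in library 2 (71.1%). In Fuca1 the short non-coding Fuca1-205 held 61.0% and 39.7% and the coding Fuca1-201 17.6% and 48.0%. Ctsh-204, a short coding transcript, held 47.9% and 17.0%, and Arsa was led in both libraries by the retained-intron Arsa-201, at 52.8% and 65.2%. Coding transcripts therefore led in library 2 in all of these but Arsa.

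Lamp2 is the case in which the isoform is known to matter, since its last exons encode different tails: LAMP2A, the receptor of chaperone-mediated autophagy, and LAMP2B and LAMP2C. Shares of the tails were nearly the same in both libraries. Lamp2-201, which encodes LAMP2A, took 47.9% and 51.8% of the gene's TPM (161 and 126 TPM). Lamp2-202, which encodes LAMP2B, took 51.0% and 46.7% (171 and 114 TPM), and Lamp2-203, which encodes LAMP2C, 0.69% and 1.18%. The last 45 coding bases of each are shown to make the difference between tails visible, with the codons of the last 5 residues before the stop codon in capitals, the stretch that holds the tyrosine sorting signal. They were read from the GENCODE M21 transcripts on GRCm38, minus strand, with last exons at chrX:38405062-38405571, chrX:38419507-38421851 and chrX:38401357-38402281.
Lamp2-201: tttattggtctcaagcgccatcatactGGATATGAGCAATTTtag
Lamp2-202: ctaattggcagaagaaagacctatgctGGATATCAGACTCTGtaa
Lamp2-203: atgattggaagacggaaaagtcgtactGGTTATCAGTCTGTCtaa

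Psap, Ctsd, Lipa and Sgsh, named here after their values were seen, showed wide shifts in share. Psap-203 took 94.6% of Psap in library 1 and 7.06% in library 2, and Psap-202 0% and 83.3%. These transcripts differ at their first exon, which is 71 bases long with 54.9% GC in Psap-203 and 156 bases long with 64.7% GC in Psap-202. The rest of these transcripts was not compared here. The first exon lower in GC content was thus the one that led in library 1. Ctsd-201 took 83.5% and 3.10% and Ctsd-202 0.84% and 96.7%. Lipa-202 took 72.6% and 7.65%. It is close to Lipa-201 in length, at 2965 and 2969 bases, and both have 45.5% GC. How well reads tell these Lipa transcripts apart was not tested. Sgsh-205, a transcript marked for nonsense-mediated decay, took 100% and 5.25%. The part of GC content in these shares was not tested.

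Psap also has a short cassette of known interest, a 9-base exon at chr10:60297537-60297545 that adds 3 residues to the saposin B stretch of the precursor. Psap-205, which holds it, took 5.43% of Psap in library 1 and 8.88% in library 2 (6.54 and 72.5 TPM). The state of this junction in Psap-203, which led in library 1, is not given here. The shares are thus those of named transcripts, not of the exon. Psap-201, which holds a 6-base insert at the same junction, took 0% and 0.65%. The junction is shown without an insert and with each, the insert in capitals, so that the small inserts on which these assignments rest can be seen.
Psap-202: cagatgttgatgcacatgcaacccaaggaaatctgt
Psap-205: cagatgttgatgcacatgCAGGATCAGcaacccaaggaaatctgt
Psap-201: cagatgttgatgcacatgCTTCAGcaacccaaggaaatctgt

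Around the 40 members, 47 further genes of the lysosome pathway were listed, of which 46 could be tested. Of these 17 were called higher in library 2 and 3 lower, against 30.1% and 18.4% of all tested genes. Their median log2 ratio was 0.63 and their median GC content 50.9%. With the GC trend removed, 6 were higher and 3 lower, against 9.55% and 8.18% of all genes. The counts of each list that follows are to be read against these shares.

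Of 15 further lysosomal enzymes, 5 were called higher and 0 lower. Among the most abundant was Lgmn, the asparaginyl endopeptidase that processes cathepsins, at 39.5 and 89.4 TPM, which was not called. Of 12 membrane and transport proteins, 4 were higher and 1 lower. Npc2, which hands cholesterol to Npc1 inside the lysosome, was called higher at 147 and 708 TPM, with a log2 ratio of 1.53 that stayed at 1.47 after removal of the GC trend. The tetraspanin Cd63, at 365 and 563 TPM, had -0.11 as measured and -1.49 after that removal, and Laptm4a, a small membrane protein at 478 and 403 TPM, had -0.99.

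Of 10 genes of enzyme delivery, 5 were called higher and 0 lower. Sort1, the sorting receptor sortilin, was at 151 and 285 TPM (log2 ratio 0.20), M6pr, the cation-dependent mannose 6-phosphate receptor, at 85.1 and 112 TPM (-0.36), and Gga2, an adaptor of receptor transport, at 14.4 and 65.6 TPM (1.07). Of the 5 transcription factors, 1 was higher and 1 lower. Zkscan3, a repressor of lysosomal genes, was at 39.8 and 44.2 TPM with -0.78, and Tfe3, an activator, at 20.0 and 58.8 TPM with 0.78. With the GC trend removed, Tfe3 was at -1.18 and called lower. Tfeb itself, named after its value was seen, had 5 counts in library 1 and 280 in library 2, with a GC content of 61.3%. It was the factor called higher, with a log2 ratio of 5.29, but was at 1.07 and not called with the GC trend removed. Of the 12 macrophage markers 5 were called higher and 1 lower, with a median log2 ratio of 0.47, and 1 was called in each direction once the GC trend was removed. The part of macrophage RNA in the members' ratios was not tested.

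Several members overlap other genes, and whether counting used strand is not given in the sources used here, so their counts are uncertain to that extent. On the opposite strand Ctsb shares 774 bases with Fdft1, Ctsa 1515 bases with Pltp, Ppt1 129 bases with Cap1, and Lamp1 3317 bases with Grtp1. Pltp, like Ctsa, had more counts in library 2 (3007, against 170 in library 1), and its part in the ratio of Ctsa was not tested. The whole span of Galns, 33222 bases, lies within Gm20388 on the opposite strand, and Idua shares 9342 bases with Dgkq. Leaving aside Glb1, the counts of the members were whole numbers to within 0.005.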

How the data were processed

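Expected counts, TPM, FPKM and isoform percentages per gene and transcript were deposited by the authors for each library, on mm10 with GENCODE annotation M4 per the accompanying deposited text. The names of the aligner and quantifier, and whether strand was used, were not given in the sources used here. Symbols, GC content and positions came from GENCODE M21 (42462 of 43346 identifiers matched, all 40 members among them) and promoters from RefSeq. Expected counts were rounded, scaled by TMM in edgeR 4.0.16 and compared by a two-sided exact binomial test in scipy 1.17.1, with Benjamini-Hochberg adjustment over genes with 10 or more counts summed over both libraries. Ratios have 0.5 added to each count. The code was tested on simulated counts. GC trends are medians of 40 bins.

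The technical replicates were separate libraries of 1 biosample, so p-values measure counting error only. Members, gene lists and tests were chosen with earlier results of these data known. Full values were given for the 3 highest genes of each role group and the 5 largest and 5 smallest ratios with 100 counts or more on average, for the 3 highest genes of other lists, and for isoforms of up to 6 members by second share. The remaining members complete their role groups, and other genes (Cst6, Csta1, Stfa1, the osteoclast genes, Tmppe, Pltp and other overlapping genes) were named after their values were seen. Protein sequences were not analysed here, and some genes of the other lists are not reported here. DESeq2 1.42.0 size factors served as an alternative.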

Additional observations from a re-analysis of the deposited data

How the results depend on the processing

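Limits: 1 biosample and 1 library a side leave no replicate check, and the libraries' depth limits Ctsw and Ctse, with 22 counts or fewer in each library. The median level, 40.5 TPM over both libraries, was 53.7 TPM without library 1 and 24.5 TPM without library 2, 38.1 TPM from posterior means, 29.2 as FPKM and 55.1 TPM without mitochondrial genes and copies. At least 0.5 TPM in both libraries was reached by 39 members and at least 5 TPM by 33. DESeq2 size factors, posterior mean counts, an edgeR exact test with an assumed dispersion of 0.01 and a filter of 1 count each gave 16 members higher and 4 lower, and a filter of 100 counts on average gave 15 and 4. Scaling to total counts gave 18 higher and 0 lower (37.2% and 6.44% of all genes), moved the median of all genes to 0.46 and that of the members to 0.74, and raised the share of calls that were higher from 62.1% to 85.2%. A limit of 1.5-fold gave 18 higher and 8 lower (35.6% and 29.6% of all genes). The median log2 ratio, 0.30, was 0.31 with DESeq2 size factors, 0.26 with 5 added to each count, 0.28 with 100 counts on average, 0.22 with the GC trend removed and 0.13 with TPM-weighted GC content. Removal of the GC trend left 3 members higher and 1 lower (9.55% and 8.18% of all genes). The weighted form, added after seeing the data, left 2 and 1 (8.17% and 7.6%). Called ratios that changed sign were Ctsz (-0.71, weighted -0.79), Ctsf (-0.37, weighted -1.03), Ctsa (-0.21, weighted -0.33), Arsa (-0.15, weighted -0.23), Sgsh (-0.61, weighted -0.47) and Lamp2 (0.08, weighted 0.11), and with weighting alone Asah1 (0.04) and Neu1 (-0.13). These follow from the subtraction of the trend. No paired analysis was possible because all samples belong to 1 group.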
